A study of Homo sapiens with 24 samples.

Results

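The tripartite motif (TRIM) family was followed across all groups of an RNA sequencing series on SH-SY5Y, a human neuroblastoma cell line in long use. Members were the rows of the count table whose symbol starts with TRIM and a number, with hyphenated and pseudogene rows left out, which gave 74 of 26485 genes. TRIM proteins carry a RING finger, one or both B-box zinc fingers and a coiled coil, followed by a C-terminal domain that binds the target. Most are ubiquitin ligases, and several are known as interferon-induced restriction factors against viruses or as regulators of the sensing of foreign RNA and DNA. Others act in chromatin, at microtubules or in axons.

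The 24 libraries fell into 8 groups of 3. At 24 h these were cells given Dextran-Catechin (DC) and interferon gamma (IFN), cells given TEPA, a polyamine salt, and IFN, cells given IFN, cells given DC, cells given TEPA, and untreated 24 h controls. At 4 h they were cells given copper chloride and untreated 4 h controls. DC and TEPA both chelate copper, and the series asked what copper inside tumor cells regulates. Doses are not in the labels used here, nor is whether the libraries of a group came from separate cultures, so p-values measure the spread between libraries, which may be technical.

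Library totals ran from 24569980 to 35372442 counts. Of the adrenergic neuroblastoma markers, HAND2, GATA3 and ISL1 stood between 136 and 455 CPM (counts scaled to a common library total) in all libraries, while TH, the first enzyme of catecholamine synthesis, had 5 counts over all libraries. IRF1, a standard IFN response gene, rose with IFN by 7.32 on the log2 scale. The zinc exporter SLC30A1 rose with copper by 2.56 and fell with TEPA by 1.5 (log2). With DC it did not differ at an adjusted p under 0.05. It averaged 21.14 ± 2.504 CPM in DC cells and 23.75 ± 2.178 CPM in 24 h control cells. Whether DC lowered copper inside these cells was not tested. Libraries also differed by the GC content of their transcripts: the median log2 level of GC-rich genes (GC share over 0.6) minus that of GC-poor genes (under 0.4), relative to the average over libraries, ran from -1.32 in 4 h control library 1 to 1.38 in 4 h control library 3. It was -0.126 to 0.902 in IFN libraries and -0.964 to -0.364 in 24 h control libraries, which did not overlap.

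Which members SH-SY5Y cells transcribe was read first. Of the 74 members, 19 had 0 counts in every library, and 12 had 1 to 77 counts over all 24 libraries and were too low to test. The silent rows include the primate-expanded TRIM48, TRIM49, TRIM51, TRIM64 and TRIM77 genes and the muscle gene TRIM63. TRIM71, an embryonic RNA-binding NHL protein, had 77 counts over all libraries, TRIM29 had 55 and TRIM6 had 2. The remaining 43 members passed the count filter and were tested.

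Levels between genes were compared as counts per kilobase of merged exon at a common library total (RPKM, mean ± SD, n = 3). In 24 h control cells the highest members were TRIM37 at 36.8 ± 0.893, a ligase of centrosomes and peroxisomes, TRIM24 at 29.2 ± 1.15, a bromodomain co-regulator, and TRIM2 at 26.0 ± 1.2, a neuronal NHL ligase. TRIM44 at 19.5 ± 0.775 and TRIM28 at 17.3 ± 4.29, the corepressor of KRAB zinc finger proteins, followed. The SD ranges of TRIM44 and TRIM28 overlapped, while those of the 3 above them were apart from each other. In IFN cells the order was headed by TRIM25 at 52.9 ± 4.83 and TRIM21 at 48.2 ± 7.49, then TRIM28 at 36.4 ± 9.65, TRIM22 at 34.5 ± 4.63 and TRIM37 at 31.7 ± 3.82. Within each pair of neighbours in that order the SD ranges overlapped. In 24 h control cells TRIM25 stood at 8.45 ± 0.0794, TRIM21 at 2.49 ± 0.413 and TRIM22 at 0.0352 ± 0.0169 RPKM, so 3 of the 5 highest members in IFN cells were not among the 5 highest in control cells.

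**Figure D1:**
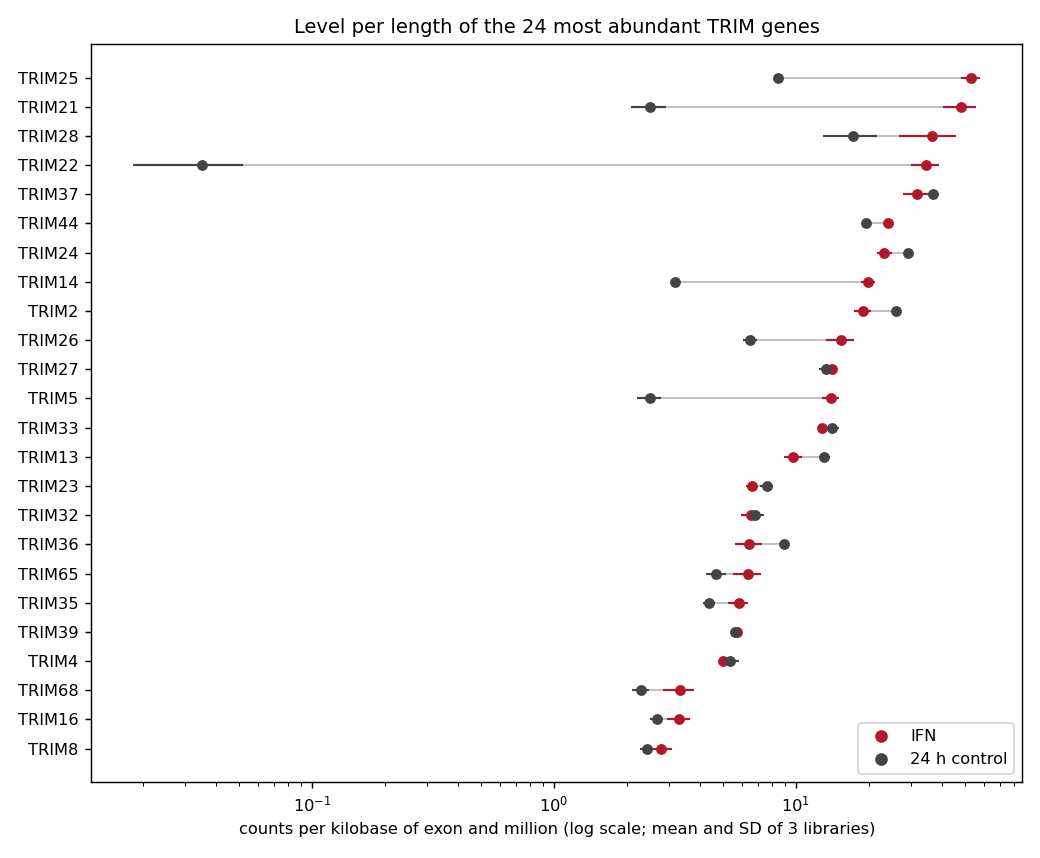
Level per length of the 24 most abundant members (rows) in IFN cells (red) and 24 h control cells (grey), as mean and SD of 3 libraries on a log axis of RPKM. TRIM25, TRIM21, TRIM22, TRIM14, TRIM26 and TRIM5 lie far to the right in IFN cells, while TRIM37, TRIM24, TRIM2 and TRIM33 lie somewhat to the left of their control level.

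IFN against the 24 h control asked which members respond to the cytokine. Of the 43 members tested, 14 rose and 2 fell at a Benjamini-Hochberg adjusted p under 0.05 in edgeR's quasi-likelihood test, adjusted over 14654 genes, of which 18.8% were called, 10% higher and 8.8% lower. The family's median log2 fold change was 0.40, with TRIM34 set at its bound, against 0.01 for all genes. TRIM34 and TRIM38 reached the count filter only through IFN libraries, so they had to differ; among the other 41 members 12 rose, and the median was 0.33. In the 3 groups with IFN the summed level of all members was higher: 2827 ± 107 CPM with IFN, 2733 ± 96.1 with DC and IFN and 2736 ± 82.1 with TEPA and IFN, against 1851 ± 58.6 with DC, 1893 ± 63.4 with TEPA and 1884 ± 25.7 in 24 h controls (SD, n = 3 each). TRIM25 alone made up 44.8% of the difference between IFN and control cells, and TRIM25, TRIM22, TRIM14 and TRIM21 together 85.9%. These are shares of CPM, to which longer transcripts add more. Per length TRIM21 stood at 48.2 RPKM with IFN and 2.49 in controls, TRIM25 at 52.9 and 8.45, and TRIM22 at 34.5 and 0.0352. In bulk RNA a change in the cells present and a change per cell cannot be told apart. Of 5 leukocyte markers, CD3E had 0 counts in every library, ITGAM had 3 over all libraries, and PTPRC averaged 0.126 ± 0.0269 CPM in IFN cells and 0.292 ± 0.154 in control cells. The list's summed level was 5.53 to 7.76 CPM in IFN libraries and 0.509 to 1.71 CPM in control libraries, and CD68, a lysosomal protein also made outside leukocytes, averaged 6.77 ± 1.17 CPM and 0.669 ± 0.477 CPM in those groups. Of 9 fibroblast and endothelium markers PDGFRB rose, with 82.8 ± 24.9 CPM in IFN cells and 37.3 ± 1.78 CPM in control cells, and COL1A2 fell to 0.927 ± 0.115 CPM, against 1.64 ± 0.162 CPM. Their summed level was 573 to 686 CPM in IFN libraries and 488 to 579.7 CPM in control libraries. Of 5 Schwann cell markers PMP22 rose, with 72.0 ± 2.28 CPM and 61.4 ± 3.43 CPM, and the sum was 73.6 to 78.7 CPM in IFN libraries and 60.2 to 66.8 CPM in control libraries, without overlap. The part of these markers in the results was not tested.

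The largest rise lay in the family's cluster on the short arm of chromosome 11 (GRCh38), where 8 members stand between 4384897 and 8682694; 7 were tested. Besides TRIM34, which had to differ, 4 of the other 6 rose with IFN, where 9.04% of genes tested on the same terms did. TRIM22 (chromosome 11, 5689689 to 5737089), a restriction factor that represses viral transcription, had 230.5, 215 and 176 CPM in IFN libraries, against 0.102, 0.302 and 0.232 CPM in 24 h control libraries. The groups did not come near each other: on the log2 scale the difference was 9.90 (SE 0.27, adjusted p = 8.86e-16), a 955-fold difference.

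TRIM34 (chromosome 11, 5619764 to 5644398), a close relative of TRIM5, had 6.34, 5.25 and 4.70 CPM with IFN, against 0 counts in all 3 control libraries, so its level was at least 169-fold higher by a floor of 3 counts over the group. It had 0 counts in all TEPA and copper libraries too, 2 counts in DC library 2 and 1 count in 4 h control library 3. By annotation 83% of its exon bases are shared with the TRIM6-TRIM34 read-through, which had 0 counts in every library, and how counting divided such reads is not given in the sources used here. TRIM5 (chromosome 11, 5663557 to 5938619), which binds incoming retroviral capsids, had 72.9, 64.9 and 62.8 CPM with IFN, against 10.7, 13.3 and 11.9 CPM in controls (log2 fold change 2.49, SE 0.11, adjusted p = 1.45e-12). TRIM21 (chromosome 11, 4384897 to 4393696), a cytosolic antibody receptor, had 103, 99.7 and 76.5 CPM with IFN, against 4.52, 5.71 and 4.20 CPM in controls, a 19.4-fold rise (log2 fold change 4.28, SE 0.17, adjusted p = 1.16e-13). Neither gene's groups overlapped, and both genes were already read in control cells, unlike TRIM34. TRIM68, in the same stretch, rose far less, by 0.53 (SE 0.15, adjusted p = 0.0204), and TRIM3 and TRIM66 were not called.

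**Figure D2:**
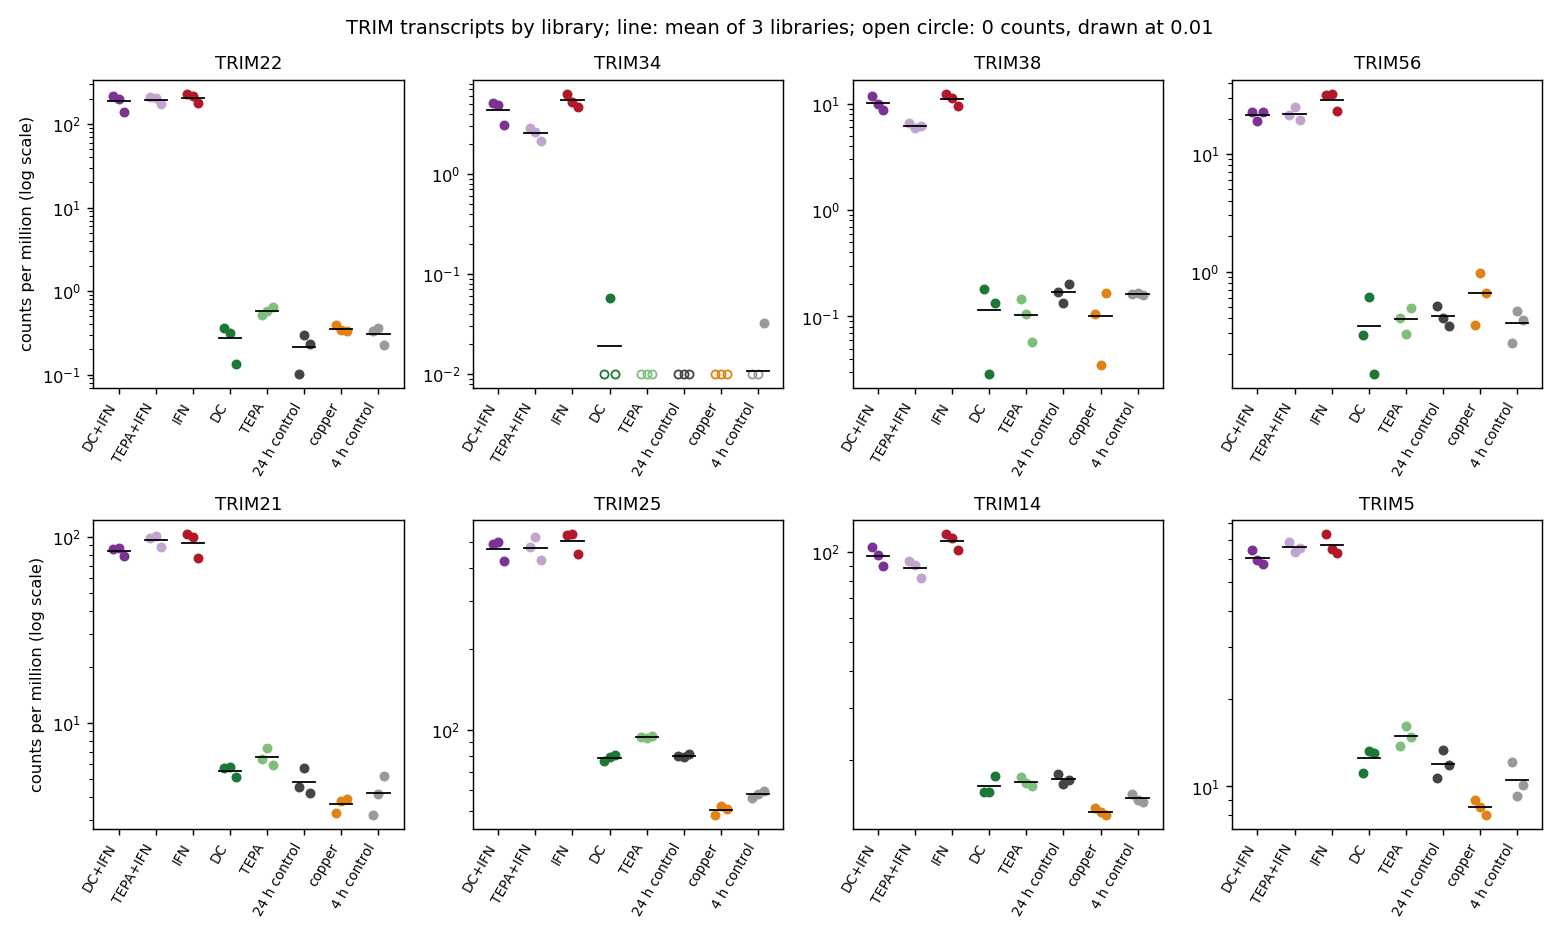
CPM of 8 members in each library (points, log axis) of the 8 groups, with the mean of 3 libraries as a line and libraries with 0 counts as open circles at 0.01. In every panel the 3 groups with IFN lie above the 5 groups without it. TRIM34 is at 0 in all TEPA, 24 h control and copper libraries.

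Members outside that cluster that act in innate immune signalling also rose. TRIM25 (chromosome 17, 56836387 to 56914080), the ligase known for activating the RNA sensor RIG-I, had 527, 532 and 450.0 CPM with IFN, against 80.2, 79.5 and 81.02 CPM in controls (log2 fold change 2.65, SE 0.08, adjusted p = 3.52e-15). TRIM14 (chromosome 9, 98069275 to 98119212), a RING-less adaptor at mitochondria, had 115, 111 and 101 CPM with IFN, against 18.0, 16.7 and 17.2 CPM in controls (log2 fold change 2.66, SE 0.08, adjusted p = 3.1e-15). These 2 were well expressed beforehand and rose by nearly the same factor, 6.27-fold and 6.31-fold. TRIM56 (chromosome 7, 101085439 to 101097967), a ligase that promotes DNA-sensing through STING, had 31.6, 32.6 and 23.0 CPM with IFN, against 0.509, 0.403 and 0.347 CPM in controls. TRIM38 (chromosome 6, 25962802 to 25991226), a regulator of sensing and inflammatory signalling, had 12.4, 11.4 and 9.53 CPM with IFN, against 0.170, 0.134 and 0.203 CPM in controls. Both were low without IFN and rose by 6.11 (SE 0.37, adjusted p = 1.7e-10) and 5.99 (SE 0.34, adjusted p = 6.2e-11) on the log2 scale. TRIM69 (chromosome 15, 44728988 to 44767829), which restricts vesicular stomatitis virus, had 12.1, 10.2 and 11.2 CPM with IFN, against 1.94, 2.08 and 1.77 CPM in controls. TRIM26 (chromosome 6, 30184455 to 30213427), a ligase of the major histocompatibility region, had 73.3, 71.4 and 57.1 CPM with IFN, against 27.2, 30.5 and 27.5 CPM in controls. Their log2 fold changes were 2.53 (SE 0.23) and 1.24 (SE 0.14). Of the 11 listed restriction factors and innate immune ligases, TRIM6 was too low to test, and TRIM34 and TRIM38 had to differ, as said. The other 8 rose in this fit and in each of its 15 alternatives, with a median of 2.65. Among all genes that did not need IFN libraries to reach the filter, 9.04% rose and the median was -0.01. That list was drawn up from what is known of these genes as IFN targets, with earlier results of these data known.

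Because these members rose together, their promoters were read for the letters of the interferon-stimulated response element (ISRE, GAAANNGAA on either strand) and of the gamma-activated site (GAS, TTCNNNGAA, which reads the same on both strands). Windows of 250 bases before to 50 bases after the start, from RefSeq on GRCh38.p14, were at hand for 58 of 74 members and not for TRIM22 or TRIM35. Some genes have several starts, with 35116 windows for 27305 genes, and a gene counted if any of its windows matched. The ISRE letters stood in 6 of the 12 members that rose and had a window, in 2 of 18 tested members not called, and in 9.86% of 27305 genes. The 12 include TRIM34, with a match, and TRIM38, without one, which had to differ. The 2 not called were TRIM16 and TRIM44, and TRIM44 rose with IFN within DC and within TEPA. The 27305 genes were not limited to those tested, and the difference between these shares was not tested. The GAS letters stood in 1 of the 12, in 3 of the 18, and in 9.38% of all genes. The stretches that carry a match in members that rose are shown 5′ to 3′ on the gene's strand with the match in capitals.
TRIM14 (chr9:98119203-98119283, minus strand): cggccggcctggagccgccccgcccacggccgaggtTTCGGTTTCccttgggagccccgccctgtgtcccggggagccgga
TRIM21 (chr11:4393653-4393733, minus strand): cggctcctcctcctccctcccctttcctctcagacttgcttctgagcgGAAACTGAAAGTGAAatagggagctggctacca
TRIM26 (chr6:30213555-30213635, minus strand): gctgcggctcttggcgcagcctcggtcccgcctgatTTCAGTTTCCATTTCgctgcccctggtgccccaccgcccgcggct
TRIM34 (chr11:5624876-5624956, plus strand): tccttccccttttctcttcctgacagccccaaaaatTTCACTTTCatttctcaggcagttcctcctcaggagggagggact
TRIM5 (chr11:5685056-5685136, minus strand): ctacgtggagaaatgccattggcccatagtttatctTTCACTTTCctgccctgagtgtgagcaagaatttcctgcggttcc
TRIM69 (chr15:44736431-44736511, plus strand): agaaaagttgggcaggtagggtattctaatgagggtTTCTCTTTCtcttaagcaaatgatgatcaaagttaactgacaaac
TRIM7 (chr5:181204414-181204494, minus strand): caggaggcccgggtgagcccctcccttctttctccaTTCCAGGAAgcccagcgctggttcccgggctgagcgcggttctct
The first 6 show ISRE letters and the last GAS letters. TRIM21 and TRIM26 hold 2 overlapping ISRE matches each, both in capitals, while the others hold 1. In TRIM21 the letters read forward as GAAANNGAA, and in the other 5 they lie on the opposite strand, so that they read TTCNNTTTC here. Of the 2 members that fell, TRIM2 holds both sets of letters, though not in all of its windows. The matches of TRIM34 and TRIM7 also do not stand in all of their windows. The matches of TRIM14 and TRIM5 stand 25 and 26 bases before the start, that of TRIM69 61 before it, that of TRIM34 89 before it, and those of TRIM26 from 193 before it, whereas TRIM21's begin 18 bases after it. TRIM25, TRIM38, TRIM56, TRIM17 and TRIM68 hold neither set of letters in this window. A match of letters is a description and not a binding site.

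Among other members, TRIM7, a ligase named as a partner of glycogenin, had 1.26, 1.29 and 1.02 CPM in IFN libraries, against 0.509, 0.403 and 0.319 CPM in controls (log2 fold change 1.53, SE 0.28, adjusted p = 0.00067). TRIM17, a ligase studied in neuronal apoptosis, had 2.94, 5.46 and 1.59 CPM with IFN, against 0.577, 0.504 and 0.521 CPM in controls (log2 fold change 2.63, SE 0.62, adjusted p = 0.00505). Neither overlapped between groups, but the IFN libraries of TRIM17 were uneven and stood in the order of their GC differences, which were 0.595, 0.902 and -0.126. With the GC trend removed the log2 fold change was 2.18. TRIM35 rose by 0.40 (SE 0.10, adjusted p = 0.00869). The calls of TRIM68 and TRIM35 were lost in 4 and 2 of 15 alternative fits, which left out IFN library 1 or 2 and, for TRIM68, 24 h control library 1 or 3. Over all 15 the adjusted p ran from 0.000762 to 0.128 for TRIM68 and from 0.000211 to 0.0623 for TRIM35.

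Falls were few and small in the quasi-likelihood test. DESeq2 called 5 members lower, where it called 12.1% of all genes lower. TRIM2, which ubiquitinates neurofilament light chain, had 173, 167 and 194 CPM in IFN libraries, against 253, 232 and 251 CPM in controls (log2 fold change -0.46, SE 0.12, adjusted p = 0.0101). TRIM36, a microtubule-associated ligase, had 38.4, 34.9 and 44.6 CPM with IFN, against 57.2, 52.6 and 54.7 CPM in controls (log2 fold change -0.48, SE 0.15, adjusted p = 0.0366). The groups did not overlap in either gene. The GC shares of their exons are 0.403 and 0.391, and both calls were lost when the GC trend was removed, with log2 fold changes of -0.10 and -0.11. TRIM36 was also lost without IFN library 1 or 2 or 24 h control library 1 or 3 (adjusted p up to 0.278). TRIM67, a neuronal member, had 6.16, 5.10 and 3.02 CPM with IFN, against 12.4, 5.54 and 11.4 CPM in controls, with overlap, and did not pass (log2 fold change -1.04, SE 0.37, adjusted p = 0.0576).

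**Figure D3:**
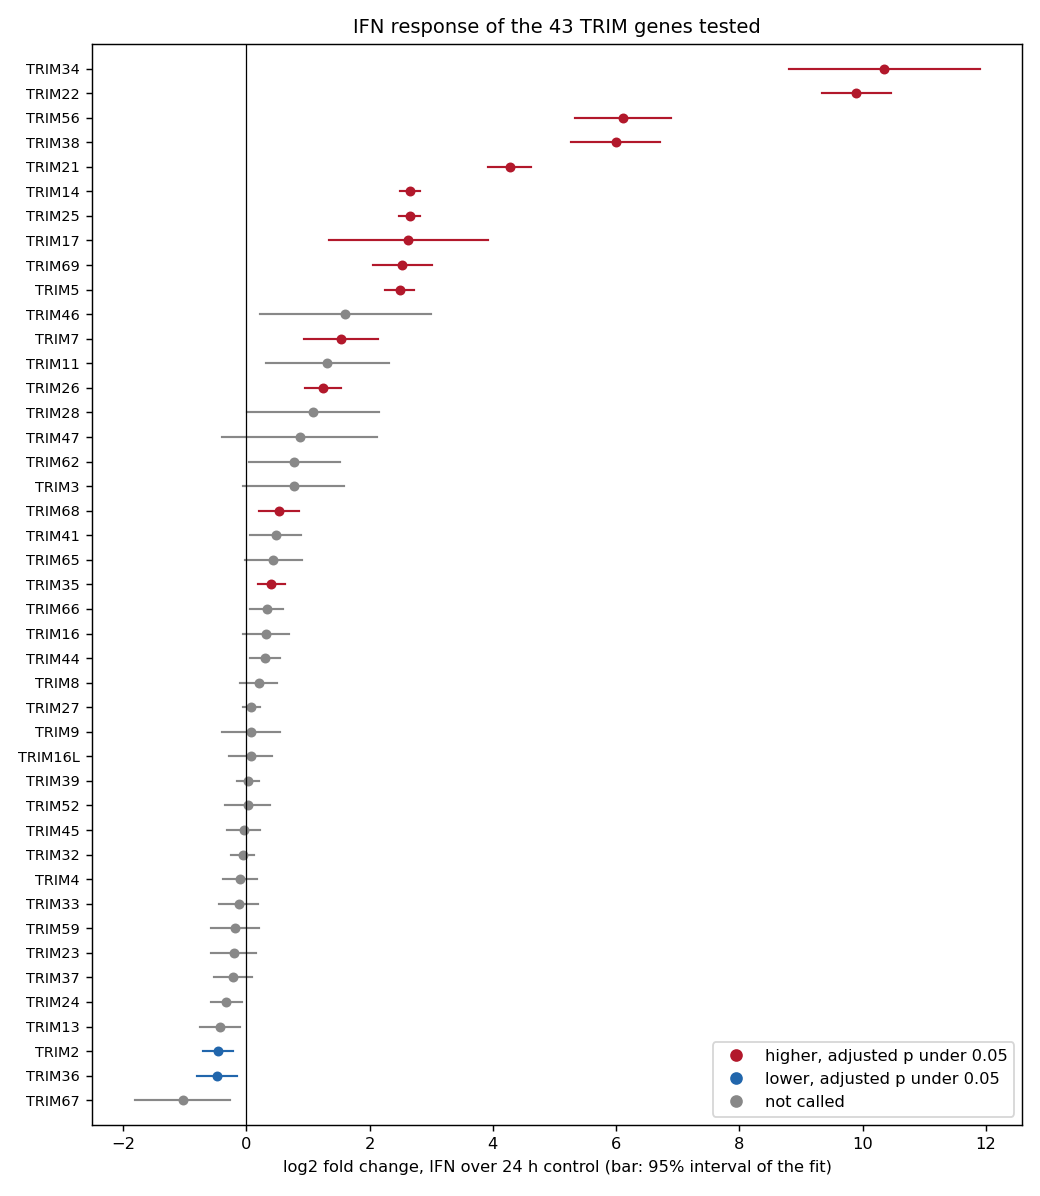
Log2 fold change of IFN over 24 h control for the 43 members tested (rows), with the 95% interval of the fit; red and blue mark adjusted p under 0.05. 14 members lie to the right and 2 to the left; the point of TRIM34 depends on the fit's prior count, since its control libraries hold 0 counts.

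Grouped by C-terminal domain, 20 members listed with a RING and a PRY-SPRY domain were tested. Without TRIM34 and TRIM38, 10 of 18 rose and 0 fell, with a median log2 fold change of 1.06, beside 9.04% and a median of -0.01 over all genes tested on the same terms. Of the 23 others 2 rose, TRIM56 and the RING-less TRIM14. The others are not free of the domain: TRIM14 carries a PRY-SPRY domain, and the 4 COS, FN3 and SPRY members, of which 0 rose, carry a SPRY domain. These may not be all the carriers among the others. Of the 4 RING-less members tested TRIM14 rose, while TRIM16, TRIM16L and TRIM44 were not called. The difference between the 20 and the 23 was not tested, and the members of either group were chosen with earlier results known. Of the COS, FN3 and SPRY members of microtubules and axons, TRIM36 fell, and TRIM9, TRIM46 and TRIM67 did not pass. No PHD-bromodomain member was called in the quasi-likelihood test: TRIM24 differed by -0.33 (SE 0.12, adjusted p = 0.0655), TRIM33 by -0.13 (SE 0.15, adjusted p = 0.519) and TRIM28 by 1.08 (SE 0.51, adjusted p = 0.125). TRIM28 had 160.0, 178 and 103 CPM with IFN, against 57.5, 89.4 and 61.9 CPM in controls, with no overlap. Its level moved with the GC difference also within untreated 4 h controls, at 44.8, 167 and 248 CPM where that difference was -1.32, 0.656 and 1.38. The part of the GC difference in the result with IFN was not tested. With the GC trend removed the log2 fold change of TRIM28 with IFN was 0.25 (adjusted p = 0.151), and TRIM28 was called in 4 of 15 alternatives, all of them with the block or on the compared libraries alone. That of TRIM24 was 0.01 (adjusted p = 0.949) with the trend removed, and TRIM24 was called in 5 of 15 alternatives, DESeq2 among them. TRIM32, TRIM23, TRIM37, TRIM45, TRIM13 and TRIM59 were not called either, with log2 fold changes between -0.43 and -0.04. Of these, TRIM13 was called in 5 of 15 alternatives, DESeq2 among them.

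Genes that work with TRIM ligases were read from lists. Of 18 RNA and DNA sensing genes, 15 were tested. DHX58, IFIH1 and IRF7 reached the count filter only through IFN libraries and had to differ. Of the other 12, 4 rose with IFN and 0 fell, beside 9.04% and 8.99% of all genes tested on the same terms. DDX58, which encodes RIG-I, rose to 494 ± 48.1 CPM, against 18.2 ± 0.751 CPM in controls, and IFIH1, which encodes the sensor MDA5, to 117 ± 15.2 CPM, against 0.207 ± 0.170 CPM. DHX58 and IRF7 rose by 6.33 and 6.6 (log2), while IRF3, ZC3HAV1 and TRAF3 rose by 1.74, 0.71 and 0.33. IRF3 averaged 11.4 ± 3.73 CPM with IFN and 3.4 ± 0.869 CPM in 24 h controls. Without IFN it also spread widely, at 7.004 ± 4.53 CPM in untreated 4 h controls and 8.97 ± 4.61 CPM with copper. The part of the GC difference in the rise of IRF3, and so in the list's count, was not tested. Of 10 ubiquitin-conjugating enzymes used by TRIM ligases, UBE2L6, the conjugating enzyme for ISG15, rose to 524 ± 85.5 CPM, against 17.5 ± 3.05 CPM in controls. UBE2D4 fell by 0.35 (log2, SE 0.06), and the other 8 were not called, a share near the 18.8% called over all genes. Of the 14 genes of the TRIM28 repressor complex, 0 rose and 2 fell, the heterochromatin proteins CBX5 by 0.52 and CBX1 by 0.40 (log2), which is 14.3% of the list beside 18.8% of all genes. PML, the TRIM protein of nuclear bodies that goes under another symbol, rose to 64.3 ± 22.0 CPM, against 4.14 ± 0.661 CPM in controls (log2 fold change 3.96, SE 0.37, adjusted p = 1.17e-07), and MID1, a microtubule ligase, was not called.

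Whether a chelator alters this response was asked within DC and within TEPA. With DC, 13 members rose and 0 fell in DC and IFN against DC, where 9.82% of all genes were called, 6.16% higher and 3.66% lower. With TEPA, 13 rose and 3 fell in TEPA and IFN against TEPA, where 14.2% of genes were called, 7.28% higher and 6.89% lower. By correlation, though not by the labels, replicate numbers paired the TEPA libraries. With the number as a block over all 24 libraries 22 rose and 6 fell, where 39.4% of all genes were called. That block was shared by all 24 h groups, also those whose numbers did not pair. Without TRIM34 and TRIM38, 11 of 41 members rose within DC and 11 of 41 within TEPA, with medians of 0.13 and 0.27. In all 3 IFN comparisons 11 members rose, namely TRIM5, TRIM7, TRIM14, TRIM21, TRIM22, TRIM25, TRIM26, TRIM34, TRIM38, TRIM56 and TRIM69. TRIM22 had 218, 201 and 140.0 CPM with DC and IFN, against 0.364, 0.317 and 0.134 CPM with DC, and 213, 204 and 173 CPM with TEPA and IFN, against 0.515, 0.584 and 0.638 CPM with TEPA. Its log2 fold changes were 9.40 within DC, 8.39 within TEPA and 9.90 without a chelator. TRIM34 was 197-fold higher with DC and IFN than with DC, where it had 2 counts in all (95% counting interval 54.2 to 1635), and at least 83.7-fold higher with TEPA and IFN than with TEPA, where it had 0.

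Other calls were made in only some of the 3 comparisons. TRIM17 and TRIM35 were each called in 2 of the 3, as was TRIM44, a RING-less member, which had 329.7, 337 and 303 CPM with DC and IFN, against 240.0, 219 and 259 CPM with DC, and 287, 270.4 and 291 CPM with TEPA and IFN, against 223, 181 and 216 CPM with TEPA. Its log2 fold changes were 0.43, 0.45 and 0.30 (adjusted p = 0.0221, 0.0128 and 0.079) within DC, within TEPA and without a chelator. Within DC the call of TRIM44 was lost in 4 of 15 alternative fits (adjusted p up to 0.101). Within TEPA it was kept in all 15. The call of TRIM35 within DC was lost in 9 of 15, among them all 6 that left out 1 library (adjusted p up to 0.251). TRIM2 fell within TEPA by 0.58 (log2, adjusted p = 0.00198) and differed by -0.37 within DC (adjusted p = 0.0526). TRIM36 and TRIM67 fell within TEPA by 0.47 and 1.16 (log2, adjusted p = 0.0486 and 0.0447), and each of these 2 calls was lost in 8 of 15 alternative fits, with adjusted p up to 0.137 and 0.191. Leaving out TEPA library 1 or 3, or TEPA and IFN library 1 or 2, ended both, and leaving out TEPA and IFN library 3 also ended that of TRIM67. TRIM17 within TEPA was lost without TEPA library 1 or 3 or TEPA and IFN library 2 (adjusted p up to 0.106). The difference in the IFN effect with and without a chelator was tested as an interaction. It was called for 0 of 43 members with DC and 0 with TEPA by edgeR, DESeq2 and limma-voom. Of all genes, edgeR and limma-voom called 0% in either, and DESeq2 called 0.0137% with DC and 0% with TEPA. In edgeR 0 and 4 members had an unadjusted p under 0.05 with DC and TEPA, beside 0.969% and 1.4% of all genes. The largest of these, TRIM22 with TEPA, had an interaction of -1.51 (95% interval -2.34 to -0.68, adjusted p = 1, 0.152 to 1 over 21 alternatives).

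**Figure D4:**
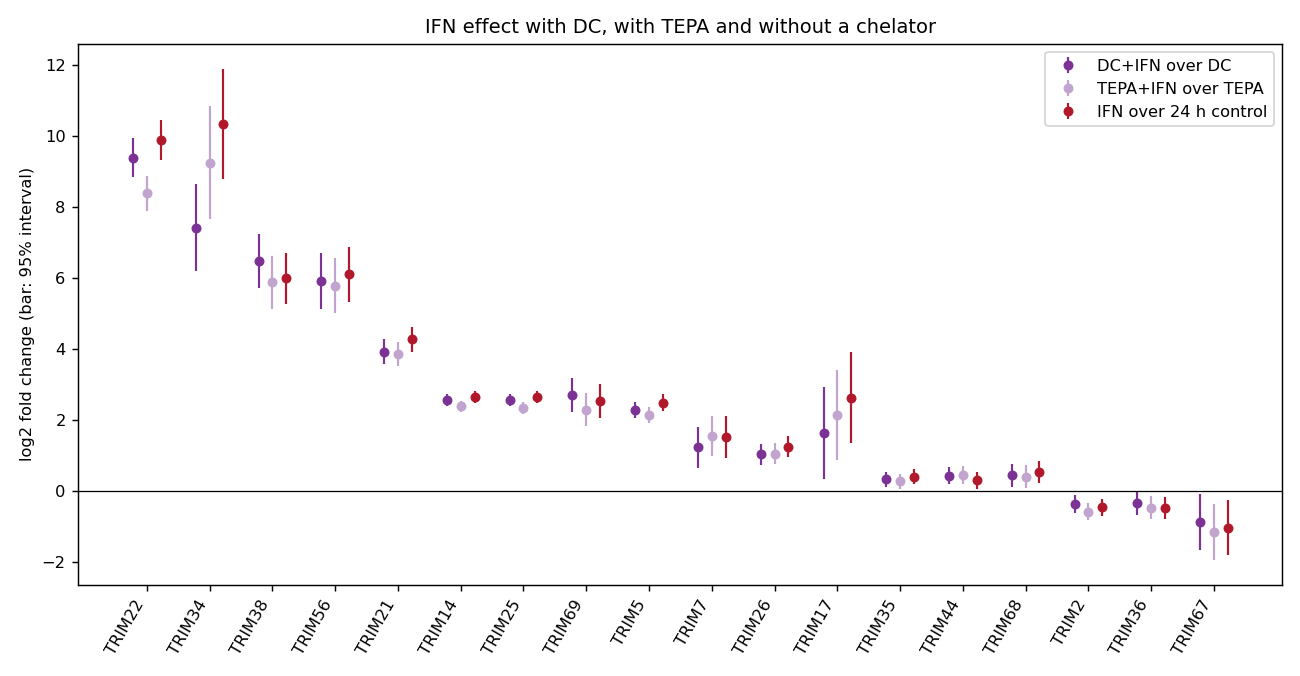
Log2 fold change by IFN with its 95% interval for 18 members (columns), within DC (purple), within TEPA (light purple) and without a chelator (red). The 3 values lie close together for most members, with TRIM22 lowest within TEPA; those of TRIM34 depend on the fit's prior count.

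Set directly against IFN alone, cells given DC and IFN differed in 0 of 43 members by edgeR, DESeq2 or limma-voom. Of all genes edgeR called 0.0205%, 0.0136% higher and 0.00682% lower. It gave 2 members and 2.29% of all genes at an unadjusted p under 0.05. For the 10 tested restriction factors and immune ligases the log2 fold changes ran from -0.43 for TRIM56 (95% interval -1.01 to 0.16) to 0.06 for TRIM69 (-0.38 to 0.49). With TEPA and IFN against IFN, 1 member was called, where 1.9% of all genes were, 0.757% higher and 1.15% lower. This was TRIM14, with 93.6, 90.4 and 81.6 CPM with TEPA and IFN, against 115, 111 and 101 CPM with IFN (log2 fold change -0.30, SE 0.07, adjusted p = 0.0409); the groups did not overlap, and the call was lost in 6 of 15 alternatives, with adjusted p from 0.000519 to 0.134 over all 15. Of these, 4 left out IFN library 1 or 2 or TEPA and IFN library 2 or 3. TRIM38 had 6.63, 5.86 and 6.16 CPM with TEPA and IFN, against 12.4, 11.4 and 9.53 CPM with IFN, and TRIM34 had 2.86, 2.61 and 2.15 CPM, against 6.34, 5.25 and 4.70 CPM. Neither gene overlapped between groups, yet neither passed, at -0.84 (SE 0.25, adjusted p = 0.106) and -1.09 (SE 0.34, adjusted p = 0.148); adjusted p ran from 0.000297 to 0.328 and from 0.000249 to 0.409 over the alternatives. TRIM16L had 17.1, 20.0 and 16.8 CPM with TEPA and IFN, against 11.1, 11.9 and 11.6 CPM with IFN (log2 fold change 0.65, SE 0.17, adjusted p = 0.0524), above all IFN libraries.

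Without IFN few members passed the test with either chelator. DC against the 24 h control gave 0 called members by edgeR, DESeq2 or limma-voom. Of all genes edgeR called 0.0136%, all of them higher. It gave 3 members and 0.921% of all genes at an unadjusted p under 0.05. TEPA gave 0 by edgeR (1.06% of all genes called, 0.519% higher and 0.539% lower), 2 by DESeq2 and 1 by limma-voom, with 11 members and 9.73% of all genes at an unadjusted p under 0.05. By correlation, though not by the labels, replicate numbers paired the libraries of both comparisons. With the number as a block over all 24 libraries DC still gave 0, whereas TEPA gave 7 higher and 2 lower. That block was shared by all 24 h groups, also those whose numbers did not pair. Of all genes 5.85% were called with TEPA under the block, 2.2% higher and 3.65% lower. The largest under the block were TRIM22 at 1.43 (adjusted p = 0.0150), TRIM16L at 0.68 (adjusted p = 0.00365) and TRIM69 at 0.68 (adjusted p = 0.0432), all log2. On the TEPA and control libraries alone with the block, 2 members were called, TRIM16L and TRIM44, where 1.78% of all genes were. TRIM22 was not called there (adjusted p = 0.115), and it was called in 3 of 15 alternatives. TRIM22 had 0.515, 0.584 and 0.638 CPM with TEPA, against 0.102, 0.302 and 0.232 CPM in 24 h controls, without overlap (log2 fold change 1.43, SE 0.36, adjusted p = 0.0656 without the block). That is a level far below the 207 CPM seen with IFN. TRIM16L, a short copy of the RING-less gene TRIM16, had 16.0, 19.5 and 16.9 CPM with TEPA, against 10.2, 12.2 and 10.4 CPM in controls (log2 fold change 0.68, SE 0.17, adjusted p = 0.0558 without the block). Since TRIM16 and TRIM16L are near-identical copies, how their reads were divided is uncertain.

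With copper for 4 h, 3 of 43 members were called in the quasi-likelihood test, 2 higher and 1 lower. That is a share near the 5.85% called over all genes, 2.65% higher and 3.2% lower. TRIM16L had 17.2, 19.3 and 19.4 CPM in copper libraries, against 8.01, 14.4 and 14.8 CPM in 4 h controls (log2 fold change 0.59, SE 0.17, adjusted p = 0.041). TRIM39, a ligase of apoptosis and the cell cycle, had 31.9, 35.2 and 35.2 CPM with copper, against 23.9, 27.6 and 29.7 CPM in controls (log2 fold change 0.33, SE 0.08, adjusted p = 0.0198). TRIM27, a ligase of endosomal sorting, had 87.4, 93.4 and 87.1 CPM with copper, against 98.9, 115 and 113 CPM in controls (log2 fold change -0.29, SE 0.06, adjusted p = 0.00742). The copper libraries of each gene lay clear of all control libraries, and TRIM16L was lowest in 4 h control library 1, the library with the lowest GC difference. By correlation, though not by the labels, replicate numbers paired these libraries. With the number as a block 4 members rose and 3 fell, a share near the 15.6% of all genes called. The 4 added were TRIM16 at 0.54 and TRIM8, a regulator of cytokine signalling, at 0.35, both higher, and TRIM13 at -0.38 and TRIM24 at -0.21 (log2). Fitted on the copper and 4 h control libraries alone there were 0 calls (0.438% of all genes), or 10 with the block (18.3%). Without copper library 1 and control library 1, TRIM27 was the 1 call left, where 5.03% of all genes were called. Leaving out 1 library, 1 call was left without control library 1 or 2 or copper library 2 or 3, and 5 were made without control library 3. TRIM39 shares 29.5% of its exon bases with the TRIM39-RPP21 read-through, which averaged 0.584 ± 0.769 CPM with copper and 0.309 ± 0.535 CPM in controls, and 12.2% with HCG18 on the opposite strand. None of the 10 tested restriction factors and immune ligases was called with copper, and MID1, the microtubule ligase of the same family under another symbol, fell by 0.54 (log2, SE 0.10, adjusted p = 0.00177).

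**Figure D5:**
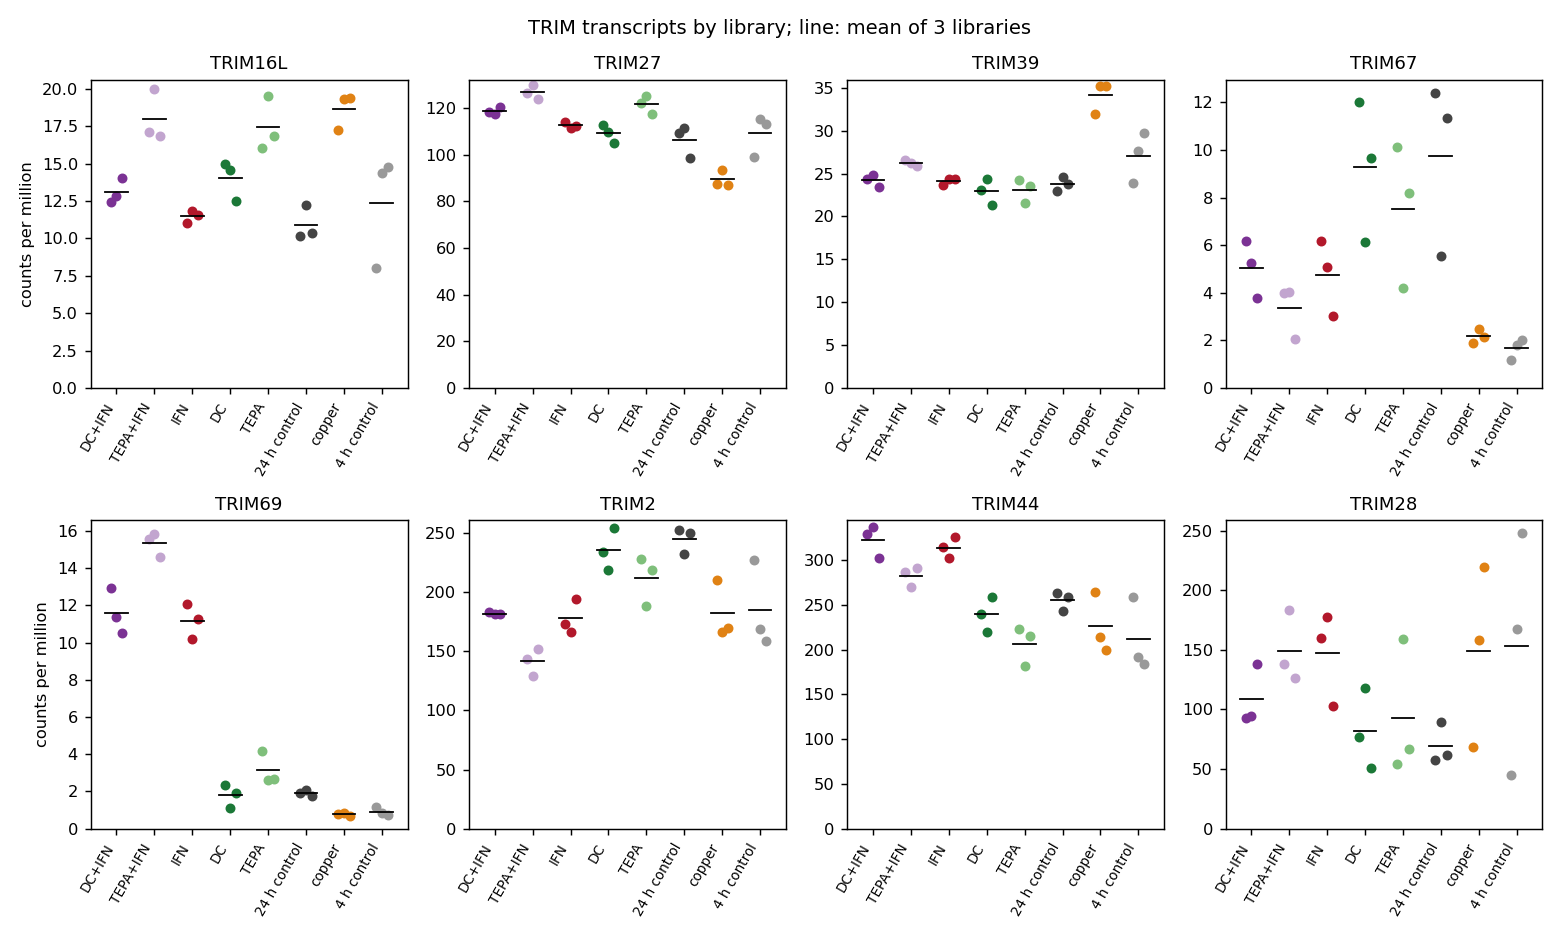
CPM of 8 members in each library (points, linear axis from 0) of the 8 groups, with the mean of 3 libraries as a line. TRIM16L, TRIM39 and TRIM27 separate copper from 4 h control libraries, TRIM67 and TRIM69 separate 24 h from 4 h controls, and TRIM28 spreads widely within groups.

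Untreated cells at 24 h and 4 h differed in 7 members, 6 higher and 1 lower at 24 h, where 9.69% of all genes were called, 5.9% higher and 3.79% lower. TRIM67 had 12.4, 5.54 and 11.4 CPM at 24 h, against 1.19, 1.82 and 2.01 CPM at 4 h (log2 fold change 2.53, SE 0.40, adjusted p = 0.000553). TRIM69 had 1.94, 2.08 and 1.77 CPM at 24 h, against 1.15, 0.861 and 0.735 CPM at 4 h (log2 fold change 1.08, SE 0.24, adjusted p = 0.00774). TRIM67 is the member with the widest gap, and all 3 of its 24 h libraries lay above the 4 h range. TRIM25 had 80.2, 79.5 and 81.02 CPM at 24 h, against 56.0, 58.0 and 59.3 CPM at 4 h (log2 fold change 0.47, SE 0.08, adjusted p = 0.000806), a small difference set against its rise with IFN. TRIM4, TRIM66 and TRIM2 were higher at 24 h by 0.52, 0.43 and 0.41 (log2), and TRIM35 was lower by 0.33. The count moved with the libraries used: without 4 h control library 1, 25 members were called, 11 higher and 14 lower. With copper library 1 left out as well, 27 were called, 12 higher and 15 lower. In that fit 55.3% of all genes were called, 25.6% higher and 29.7% lower. Without 24 h control library 1 or 3, or 4 h control library 2 or 3, 2 to 4 were called. Shares of all genes for the fits without 1 library are not given here. Fitted on the 6 control libraries alone, 0 were called, beside 0.00725% of all genes. Time in culture and any other difference between the 2 harvests cannot be told apart, and the labels give no day of harvest.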

How the data were processed

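RNA of 24 SH-SY5Y libraries was measured. The authors deposited raw read counts for 26485 gene symbols. The submitters' processing notes name STAR 2.5a, RSEM 1.2.31 and hg38; the annotation release and the strand setting are not given in the sources used here, so reads of overlapping genes on opposite strands cannot be told apart.

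Genes were kept with filterByExpr of edgeR 4.0.16 (R 4.3.3, minimum count 10, 14654 genes) and scaled with TMM. A quasi-likelihood model with 1 mean per group was fitted to all 24 libraries (16 residual degrees of freedom, biological coefficient of variation 0.207), with 11 contrasts. A call is an adjusted p under 0.05 (Benjamini-Hochberg, all genes tested). CPM are counts over the TMM-scaled library total; SE and 95% intervals come from the fit. Counting intervals and floors cover counting error only. GENCODE 29 on GRCh38 gave places, merged exon lengths and GC for 90% of symbols.

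Same-numbered libraries counted as paired where their deviations from the group means correlated above 0.1 in all 3 pairs. This held for TEPA and IFN against TEPA (0.294, 0.558 and 0.226), copper against its control (0.866, 0.350 and 0.817), DC against its control (0.154, 0.550 and 0.229) and TEPA against its control (0.363, 0.575 and 0.232). Alternatives were RLE scaling, no filter, the replicate block, GC trend removal, the compared groups alone, DESeq2 1.42.0, limma-voom (limma 3.58.1) and leaving out libraries. With all 24 libraries the block was 1 effect per replicate number and time point, shared by all groups of that time point, paired or not. The labels do not say what the replicate numbers mean.

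Members and lists were chosen with earlier results of these data known. By the naming rule any member may be named; given in full were up to 12 called members with the largest rise and 8 with the largest fall in each comparison and, whatever their values, the restriction factors, the PHD-bromodomain, NHL and COS-FN3-SPRY members, TRIM13, TRIM23, TRIM37, TRIM45 and TRIM59, and the 5 most abundant. TRIM16L and TRIM44 where not called, and TRIM8 and TRIM16, were chosen after their values were seen. Some marker and label-check genes are not reported here.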

Additional observations from a re-analysis of the deposited data

How the results depend on the processing

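No called value changed its sign under any alternative run; of values not called, TRIM24 with IFN turned from -0.33 to 0.01 (log2) with the GC trend removed, with or without the block. Of the 16 members called with IFN against the 24 h control, 12 stayed called in all 15 alternatives, as did 10 of 13 within DC and 13 of 16 within TEPA. Each of the 3 copper calls, the 7 calls between controls and the TEPA and IFN call of TRIM14 was lost in at least 1. The counts of members called moved as follows, with the share of all genes called in brackets. With the replicate block they were 30 for IFN (56%), 28 within TEPA (39.4%) and 7 for copper (15.6%). Under that block they were also 9 for TEPA (5.85%) and 6 for TEPA and IFN against IFN (7.23%). With the GC trend removed they were 6 for copper (14.7%) and 5 for TEPA (4.52%). In that setting they were also 8 for TEPA and IFN against IFN (7.29%) and 11 between the controls (23.6%). With both they were 26 for IFN (47.3%), 20 within DC (26.5%) and 26 within TEPA (38%). With both they were also 10 for copper (22.7%), 11 for TEPA (10.7%) and 12 for TEPA and IFN against IFN (14.3%). On the groups compared alone they were 27 for IFN (47.8%) and 0 for copper (0.438%). There they were also 2 for TEPA and IFN against IFN (0.86%) and 0 between the controls (0.00725%). With the block as well they were 28 for IFN (51.7%) and 10 for copper (18.3%). They were then 2 for TEPA (1.78%) and 15 for TEPA and IFN against IFN (19.7%). DESeq2 and limma-voom gave 2 and 1 for TEPA (2.55% and 1.2%), and 4 each for TEPA and IFN against IFN (4.06% and 2.27%). Without a filter the counts were 0 for TEPA and IFN against IFN (0.91%) and 4 between the controls (5.12%). Lacking both number 1 libraries at 4 h, they were 1 for copper (5.03%) and 27 between the controls (55.3%). Leaving out 1 library at a time gave 13 to 20 for IFN, 11 to 12 within DC and 13 to 18 within TEPA. It gave 1 to 5 for copper, 0 to 1 for TEPA and IFN against IFN and 2 to 25 between the controls. Shares of all genes for the fits without 1 library are not given here. Where numbers did not pair the samples, which holds for IFN against its control (correlations -0.0514, 0.266 and 0.0869) among others, the block is a check only. The cause of these moves was not tested.

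Groups of 3 limit the smallest effect that can be called. Members that did not reach about 0.338 CPM in at least 3 libraries, of whatever group, could not be tested. TRIM22 shares 10.7% of its exon bases with OR56B1 on the same strand. Over all libraries, of the 5 most abundant members per length, 4 were also among the 5 most abundant without division by length.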
